A study of Mus musculus with 3 samples.

Results

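A set of 10 genes from 2 families of calcium-dependent proteins, 6 of the S100 family (S100a4, S100a6, S100a8, S100a9, S100a10 and S100a11) and 4 annexins (Anxa1, Anxa2, Anxa3 and Anxa5), were followed across 3 kidney arrays. They were taken by their symbol in the platform annotation, and all 10 were measured, out of 19938 genes with a probe set of their own. RNA came from kidney of female mice of strain CBL/6, 8 to 10 weeks old, and was read on Affymetrix Mouse Gene 1.0 ST arrays. The NTS/PGE2 array held kidney of mice given sheep nephrotoxic serum (NTS, an antiserum that binds the glomerulus and starts an immune nephritis; dose 13.5 ug/g body weight), then daily prostaglandin E2 (PGE2, a lipid mediator; dose 5 ug/g) beginning on day 2. The NTS array held kidney of mice given the serum alone. Both serum groups were killed on day 7, and the control array held kidney of non-treated mice. The labels give no vehicle injection, and do not say whether an array's RNA came from 1 animal or from a pool. There was 1 array per group, so no difference has a replicate check and no p-value was computed.

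S100 proteins are small proteins with paired EF-hand loops that mostly act as dimers and bind partner proteins when calcium rises. Annexins bind membranes rich in acidic phospholipids, again with calcium, and several carry an N-terminal tail that docks an S100 dimer. S100A10 with annexin A2 and S100A11 with annexin A1 are the best known of these pairs, and S100A8 with S100A9 forms calprotectin, a major cytosolic protein of neutrophils.

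Of the 10 genes, S100a6, Anxa1, Anxa2 and Anxa3 stood at least 2-fold higher with NTS than in control, where 2.7% of all genes passing a filter on dim genes did. The same 4 stood at least 2-fold lower with NTS/PGE2 than with NTS, where 3.28% of genes did. S100a4, S100a10 and S100a11 were also highest on the NTS array, with smaller differences. Anxa5 stood the other way, lowest on the NTS array and highest on the control array. S100a8 and S100a9 had equal values on both serum arrays. S100a6 was the only member at least 2-fold different between the NTS/PGE2 and control arrays, and it was lower with PGE2, as 0.659% of genes were. In these bulk samples fewer cells of a type and less RNA per cell cannot be told apart.

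To show what lies in front of these genes, the 250 bases before the annotated start are printed for 3 genes that stood high on the NTS array and for Anxa5, which stood low there. The sequences are from RefSeq's GRCm38.p6 assembly, matched by symbol, which found 8 of the 10 members. They are written from the first to the last base before the start, in the direction of the gene. Capitals mark matches on either strand to 5 motifs: the AP-1 motif TGANTCA, the STAT motif TTCNNNGAA, the C/EBP motif TTGCNNAA, the TEAD motif CATTCC and the TATA motif TATAAA.
S100a6, chr3:90612644-90612893, plus strand: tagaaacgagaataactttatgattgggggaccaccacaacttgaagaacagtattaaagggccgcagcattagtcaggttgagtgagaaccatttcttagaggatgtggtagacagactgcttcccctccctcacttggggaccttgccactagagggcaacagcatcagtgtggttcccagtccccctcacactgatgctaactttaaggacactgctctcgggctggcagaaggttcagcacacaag
Anxa1, chr19:20390672-20390921, minus strand: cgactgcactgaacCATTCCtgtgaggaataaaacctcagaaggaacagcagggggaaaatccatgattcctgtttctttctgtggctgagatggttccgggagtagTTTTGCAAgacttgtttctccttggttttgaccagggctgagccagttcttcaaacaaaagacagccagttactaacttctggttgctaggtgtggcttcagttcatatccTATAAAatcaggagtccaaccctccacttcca
Anxa2, chr9:69453433-69453682, plus strand: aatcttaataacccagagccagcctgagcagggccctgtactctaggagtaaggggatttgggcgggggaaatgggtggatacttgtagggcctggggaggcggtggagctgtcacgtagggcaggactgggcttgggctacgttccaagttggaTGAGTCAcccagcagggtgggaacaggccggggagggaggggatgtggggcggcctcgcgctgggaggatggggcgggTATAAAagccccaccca
Anxa5, chr3:36475888-36476137, minus strand: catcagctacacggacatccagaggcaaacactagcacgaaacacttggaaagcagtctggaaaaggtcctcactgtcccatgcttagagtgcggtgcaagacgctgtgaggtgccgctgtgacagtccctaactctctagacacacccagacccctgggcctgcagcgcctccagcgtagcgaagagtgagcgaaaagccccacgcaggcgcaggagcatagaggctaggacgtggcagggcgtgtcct

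The AP-1 motif lay in front of Anxa2, at 95 to 89 bases before the start, and in front of S100a11, at 136 to 130 and again at 38 to 32 bases. It was found in 6.75% of 32851 such windows of the assembly's genes. The TATA motif lay in front of Anxa1, Anxa2, S100a4 and S100a8, against 12.4% of all windows. In Anxa1 it stood 32 to 27 bases before the start, with a TEAD match at 236 to 231 (12.6% of windows) and a C/EBP match at 143 to 136 (9.56% of windows). S100a9 held the other C/EBP match. No window of the 8 members held the STAT letters, which were found in 7.02% of all windows, and those of S100a6 and Anxa5 held none of the 5 motifs. A match of letters is a description of the sequence and does not show that a factor bound there.

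The values are log2 values after RMA, a method that makes the arrays' distributions alike and summarises the probes of a set. The median over all probe sets was 7.14 with NTS/PGE2, 7.11 with NTS and 7.11 in control. A gene entered a comparison if the higher of its values reached that median, and was called if its log2 values lay 1 or more apart, a 2-fold difference. Both are rules of size and not tests. The only measure of error in these data is the gap between probe sets of 1 gene: from 483 genes read by a bright pair of sets, a single set's difference had an SD of 0.22 between NTS and control, 0.22 between NTS/PGE2 and NTS, and 0.13 between NTS/PGE2 and control. It leaves out the spread between animals. All 9 measured kidney markers passed the filter in each comparison, but most stood lower with NTS: their summed linear value was 61080 with NTS/PGE2, 31480 with NTS and 54900 in control. Of the 9, 7 were lower with NTS than in control, 5 by at least 2-fold (median -1.34), where 5.42% of all genes were. With NTS/PGE2, 8 were higher than with NTS, 6 by at least 2-fold (median 1.34), where 4.15% of all genes were. Most fat and urothelium genes were high on the control array. Of 10 fat genes 9 were lower and 1 higher with NTS than in control, and of 13 urothelium genes 9 were lower and 2 higher. The fat list had a median of -2.94 for NTS minus control and -3.02 for NTS/PGE2 minus control. For NTS/PGE2 minus NTS, which does not use the control array, its median was 0.02, with genes from -1.92 to 1.04.

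**Figure D1:**
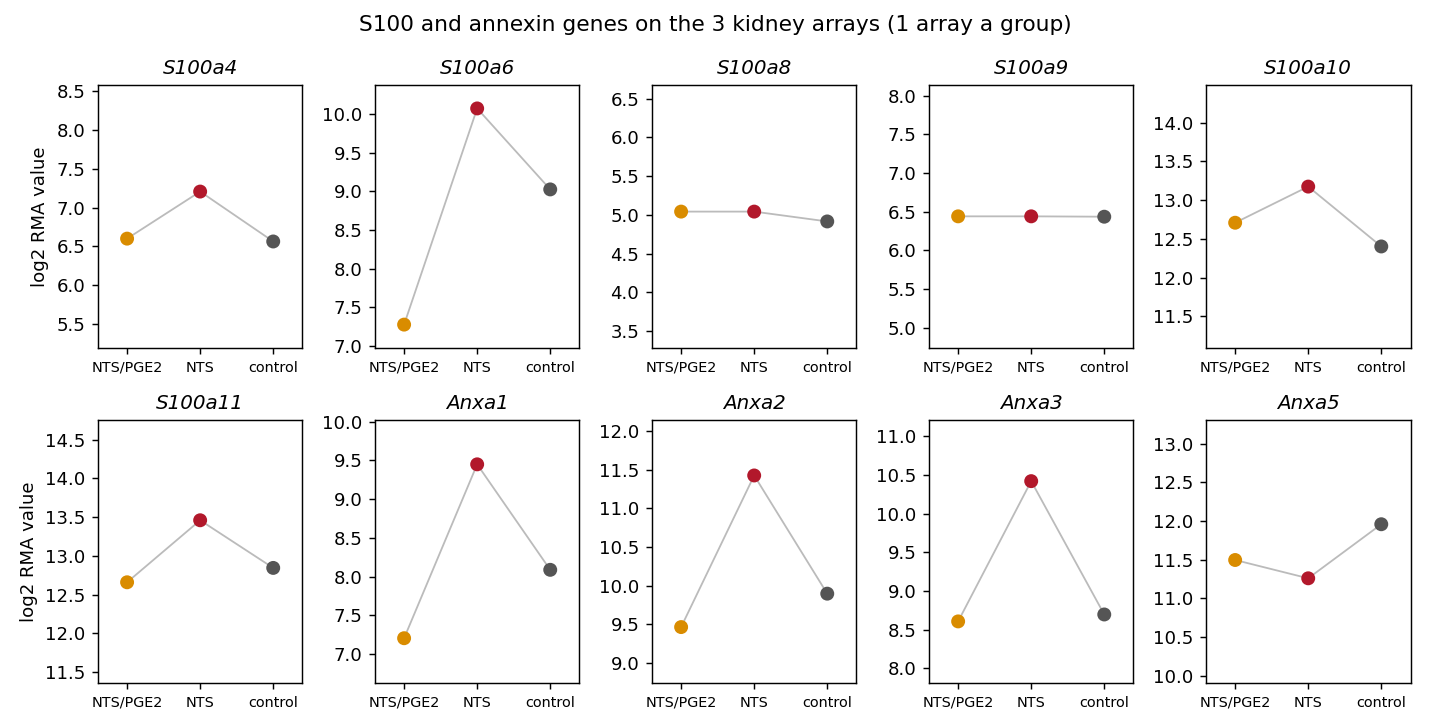
Log2 RMA value (vertical axes, each spanning the same number of log2 units) of the 10 genes on the NTS/PGE2, NTS and control arrays (horizontal axes); each point is 1 array and lines only join the points of a gene. Anxa1, Anxa2, Anxa3 and S100a6 peak on the NTS array, S100a8 and S100a9 are level, and Anxa5 is lowest on the NTS array.

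Annexin A3, which is found in the granules of neutrophils and in several epithelia, showed the largest difference of the 10 between the NTS and control arrays. Anxa3 read 8.61 with NTS/PGE2, 10.42 with NTS and 8.70 in control. It was thus high on the NTS array alone, and its NTS/PGE2 and control values were closer to each other than the spread between probe sets. The NTS value was 3.30-fold above control, a log2 difference of 1.72 that 0.764% of the genes passing the filter reached or exceeded in that direction. The NTS/PGE2 value was 3.51-fold below NTS, a difference of -1.81, and differed from control by -0.09.

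Annexin A2 joins S100A10 in a membrane-bound complex that gathers plasminogen and its activators on the cell surface. Anxa2 read 9.47 with NTS/PGE2, 11.42 with NTS and 9.90 in control. The NTS array was again the high one. Its NTS value was 2.88-fold above control (log2 difference 1.53), and its NTS/PGE2 value was 3.89-fold below NTS (log2 difference -1.96). On the NTS/PGE2 array it lay 0.43 log2 units below control, more than the spread between probe sets.

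Annexin A1, induced by glucocorticoids and known for limiting leukocyte entry through formyl peptide receptors, gave the order NTS, control, NTS/PGE2. Anxa1 read 7.20 with NTS/PGE2, 9.45 with NTS and 8.09 in control. The 3 values were well separated, and the NTS/PGE2 array was the low one. The NTS value was 2.57-fold above control, a log2 difference of 1.36. The NTS/PGE2 value was 4.74-fold below NTS at -2.25, and 1.84-fold below control at -0.88, a difference from control that 0.936% of genes passing the filter reached or exceeded downwards.

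Annexin A5, best known for binding phosphatidylserine exposed on dying cells, did not share this order. Anxa5 read 11.50 with NTS/PGE2, 11.26 with NTS and 11.96 in control. Both serum arrays were below control. The differences were -0.70 for NTS minus control, 0.24 for NTS/PGE2 minus NTS and -0.46 for NTS/PGE2 minus control, none of them 2-fold, and that of 0.24 was about the size of the spread between probe sets. The endothelium list also stood lower on the NTS array, with all 10 genes below their control values and a median of -1.48, beside a median of 1.26 for NTS/PGE2 minus NTS. Its summed linear value was 12660 with NTS/PGE2, 5064 with NTS and 14420 in control. Its part in the value of Anxa5 was not tested.

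S100A6, or calcyclin, is a dimer found in fibroblasts and epithelia that binds the calcyclin-binding protein. S100a6 read 7.28 with NTS/PGE2, 10.07 with NTS and 9.02 in control. It spanned the widest range of the 10 genes, with the NTS/PGE2 array far below both others. The NTS value was 2.06-fold above control (log2 difference 1.05), just inside the rule of size, where S100a10 at 1.71-fold was just outside it. The NTS/PGE2 value was 6.93-fold below NTS (log2 difference -2.79), and 3.36-fold below control (log2 difference -1.75). These last differences were reached or exceeded downwards by 0.197% and 0.251% of the genes passing the filter.

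Urothelium markers had their lowest summed level on the array where S100a6 was lowest. So did the fat, macrophage, fibroblast and matrix, and injured tubule lists, so this was not particular to urothelium. Among these lists, only the injured tubule one had the order of S100a6, with sums of 7367 with NTS/PGE2, 42870 with NTS and 10490 in control. Of 13 listed urothelium genes, 0 lay above and 11 below control on the NTS/PGE2 array, with a median difference of -0.76. At least 2-fold lower were 5, where 0.659% of all genes were. Of those 5, Upk1a, Upk1b, Krt19 and Psca read below the NTS/PGE2 median and passed the filter only through their control values. Between NTS/PGE2 and NTS, where S100a6 differed most, 4 of the 13 were higher and 6 lower, with a median of 0. Of the 13, 1, Krt19, was at least 2-fold lower, where 3.28% of all genes were. Krt19 passed the filter there only through its NTS value. Their summed linear value was 2846 with NTS/PGE2, 4064 with NTS and 6018 in control, which is another order than that of S100a6. The epithelial keratin gene Krt19 read 6.56 with NTS/PGE2, 8.87 with NTS and 8.77 in control, and the uroplakin gene Upk1b read 6.25, 6.75 and 9.05 on the same arrays. Krt13 and Foxa1 of this list had equal values on all 3 arrays. The part of urothelium in the values of S100a6 was not tested.

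S100A10 and S100A11 were bright on all arrays and differed less. S100A10, or p11, has lost calcium binding and holds annexin A2 at the membrane; S100a10 read 12.71 with NTS/PGE2, 13.17 with NTS and 12.40 in control. S100A11, the partner of annexin A1, is a growth regulator of epithelia; S100a11 read 12.66 with NTS/PGE2, 13.46 with NTS and 12.84 in control. Both were highest on the NTS array and neither reached 2-fold. For S100a10 the differences were 0.77 for NTS minus control, -0.47 for NTS/PGE2 minus NTS and 0.31 for NTS/PGE2 minus control, so it stayed above control with PGE2. For S100a11 they were 0.62, -0.80 and -0.19 in the same comparisons. S100a11 had 2 probe sets with the same listed transcripts, which gave 0.62 and 0.62 for NTS minus control, then -0.79 and -0.81 for NTS/PGE2 minus NTS. The assembly also lists a pseudogene, S100a11-ps, whose transcripts these probes may not tell apart from S100a11. Within each docking pair the annexin differed more than its brighter S100 partner on the log2 scale, which need not hold for unlogged values. For NTS minus control the differences were 1.53 for Anxa2 beside 0.77 for S100a10, and 1.36 for Anxa1 beside 0.62 for S100a11.

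S100A4, also called fibroblast-specific protein, is made by fibroblasts and by macrophages and other leukocytes. S100a4 read 6.60 with NTS/PGE2, 7.21 with NTS and 6.56 in control. It was high on the NTS array alone and passed the filter only through that value. The differences were 0.64 for NTS minus control, -0.61 for NTS/PGE2 minus NTS and 0.04 for NTS/PGE2 minus control. Fibroblast and matrix markers went both ways between NTS and control, with 5 of 11 higher and 6 lower and a median of -1.04: the collagen gene Col1a1 differed by 2.06, while Dcn, the small proteoglycan decorin, differed by -2.55. Their summed linear value was 8803 with NTS/PGE2, 12390 with NTS and 12540 in control. Of 12 macrophage markers, NTS exceeded control for 1 and lay below it for 10, with a median of -0.38; Cd68 was the higher one at 2.23 and the pan-macrophage gene Adgre1 differed by -0.87. Their summed linear value was 3567 with NTS/PGE2, 4233 with NTS and 4690 in control. The part of these cells in the values of S100a4 was not tested.

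S100a8 and S100a9, the calprotectin genes, showed next to no difference. S100a8 read 5.04 with NTS/PGE2, 5.04 with NTS and 4.91 in control, below the 25th percentile of each array, so these values may be background. S100a9 read 6.44, 6.44 and 6.43 on the same arrays, below each median. Neither passed the filter in any comparison, and in none did they differ by more than the spread between probe sets. Exactly equal values were common, in 25.4% of all probe sets on the 3 arrays and in 35.6% of all genes between NTS/PGE2 and NTS. The summary method can give them where small differences exist, so they do not show that a gene was unchanged.

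Neutrophil markers were as flat. Of the 14 listed genes, 12 lay below the median on every array. Between the NTS and control arrays 9 had equal values, where 37% of all genes had. Ly6g, the surface marker of mouse neutrophils, read 5.93 with NTS/PGE2, 5.78 with NTS and 5.85 in control, and Csf3r, the receptor of the neutrophil growth factor, read 6.23, 6.19 and 6.19. The exception was Itgam, an integrin of neutrophils and macrophages, at 6.52 with NTS/PGE2, 7.69 with NTS and 6.59 in control. Its 1.10 was the only difference of the list past 2-fold for NTS against control, where 2.7% of all genes were at least 2-fold higher. Itgam passed the filter only through its NTS value, and only 2 of the 14 genes passed it in that comparison. Probe sets annotated to both Itgam and another gene were not used. The summed linear value of the list was 1037 with NTS/PGE2, 1141 with NTS and 1030 in control.

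Counted over the 10 genes, 7 were highest on the NTS array, 2 shared their highest value between the NTS and NTS/PGE2 arrays, and 1 was highest on the control array. For NTS against control, 4 of the 10 were at least 2-fold higher, where 2.7% of the 11778 genes passing the filter were, and 0 were at least 2-fold lower, where 5.42% were. The median difference was 0.71 over the 10 genes and 0 over all 19938. For NTS/PGE2 against NTS, 0 of the 10 were at least 2-fold higher, against 4.15% of 11699 genes, and 4 were at least 2-fold lower, against 3.28%, with a median of -0.70 beside 0 over all genes. For NTS/PGE2 against control, 0 were at least 2-fold higher, against 0.0607% of 11534 genes, and 1 was at least 2-fold lower, against 0.659%, with a median of -0.14 beside 0. The filter passed 8 members in the first and second of these comparisons and 7 in the last, which S100a4 did not pass. The comparisons share arrays, so their counts are not independent of each other. The genes were chosen with results of these arrays known, so the counts describe them and test nothing.

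The counts moved with the fold used. At 1.5-fold, 8 of the 10 differed for NTS against control, 7 higher and 1 lower, where 19.6% of genes did. Between NTS/PGE2 and NTS 6 differed, all lower, where 18.9% did, and between NTS/PGE2 and control 2 did, S100a6 and Anxa1, where 2.71% did. At 3-fold, 1 gene, Anxa3, was left for NTS against control, where 3.07% of genes were. For NTS/PGE2 against NTS the same 4 genes were left, where 2.63% were, and for NTS/PGE2 against control S100a6 was left, where 0.312% were.

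**Figure D2:**
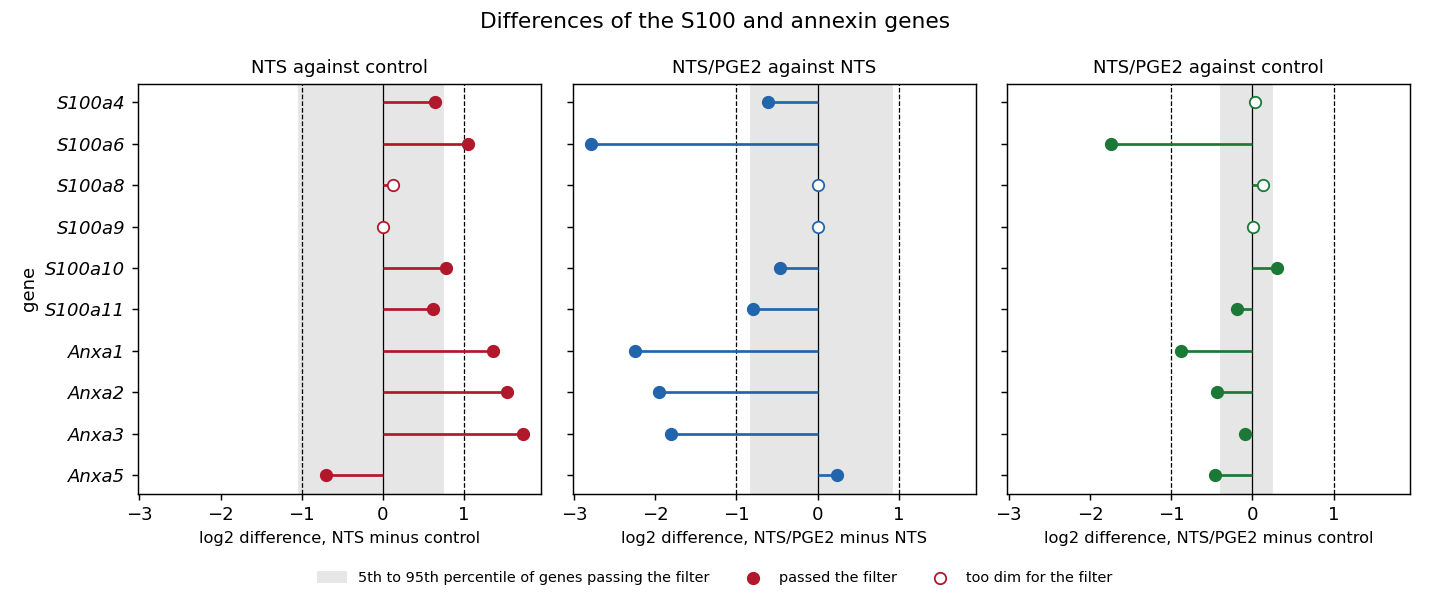
Log2 difference (horizontal axes) of each gene (vertical axis) in the 3 comparisons; open points were too dim for the filter, dashed lines mark 2-fold and grey bands the 5th to 95th percentile of all genes passing the filter. S100a6, Anxa1, Anxa2 and Anxa3 lie beyond 2-fold in the first and second panels, on opposite sides, and S100a6 alone in the third.

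Most of the S100 genes measured lie close together. The 6 S100 members lie on 1 chromosome with 9 other S100a genes, most of them side by side in a run of neighbours, while S100a11 and S100a10 are next to each other farther along. S100a6 is flanked by S100a5 and S100a7a, and S100a4 by S100a2 and S100a5. These flanking genes, S100a2, S100a5 and S100a7a, had equal values on all 3 arrays, but all lay below the medians and passed the filter in no comparison, so no contrast with S100a6 or S100a4 is drawn from them. S100a3 and S100a14 were likewise equal and dim, and S100a13 was equal at 8.86, above the medians. The adjacent S100a11 and S100a10 both stood highest with NTS, and the adjacent S100a8 and S100a9 were both level. S100a1, an S100 protein best known from muscle, was bright at 12.55 with NTS/PGE2, 12.66 with NTS and 12.66 in control.

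**Figure D3:**
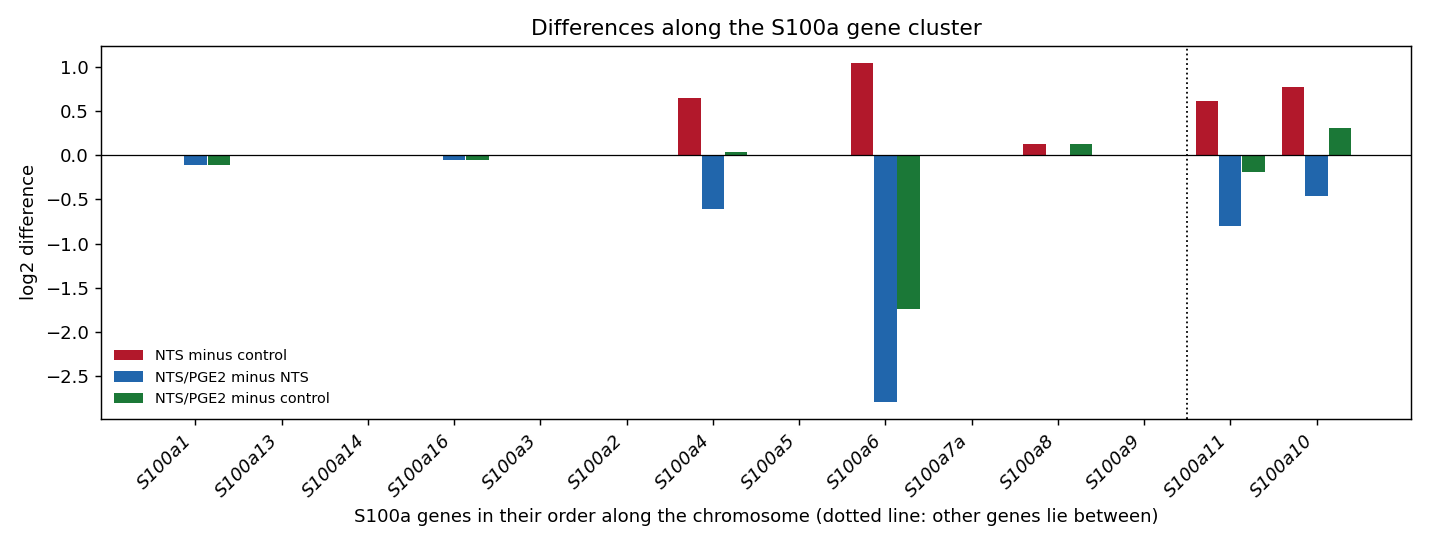
Log2 differences (vertical axis) of the 14 measured S100a genes in their order along the chromosome (horizontal axis), with a bar for each of the 3 comparisons and no bar where values were equal. Among the neighbours from S100a1 to S100a9, those with a difference over 0.5 in size are S100a4 and S100a6; the equal neighbours S100a2, S100a3, S100a5, S100a7a and S100a14 were too dim for the filter.

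From the rest of the S100 family, 10 further genes were listed and measured. S100a2, also measured and described above, was not in this list. Only 4 of the 10 passed the filter in each comparison, and the rest could not be called. No contrast with the members is drawn from their counts. Of the 10, 0 were at least 2-fold higher and 1 at least 2-fold lower for NTS against control, beside 2.7% and 5.42% of all genes. None was called between NTS/PGE2 and NTS (all genes: 4.15% up, 3.28% down). The same held between NTS/PGE2 and control (all genes: 0.0607% up, 0.659% down). The one called was S100g, or calbindin-D9k, a calcium buffer of the distal tubule and gut under vitamin D control. S100g read 12.91 with NTS/PGE2, 11.94 with NTS and 13.06 in control, low on the NTS array alone, with -1.13 for NTS minus control, 0.97 for NTS/PGE2 minus NTS and -0.16 for NTS/PGE2 minus control. S100b, an S100 protein of glia and fat cells, read 6.32 on all 3 arrays, below their medians, and passed the filter in no comparison. No contrast with the fat markers, most of them high on the control array, is drawn from it. The median difference of these 10 genes was 0 in each comparison. Equal NTS and control values were found in 8 of them, all but S100a1 and S100g, and in 37% of all genes.

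Of 8 further annexins, 5 passed the filter in each comparison, and 0 were at least 2-fold different in any. Of all genes passing it, 2.7% stood 2-fold up and 5.42% down between NTS and control. Between NTS/PGE2 and NTS the shares were 4.15% up and 3.28% down, and between NTS/PGE2 and control 0.0607% and 0.659%. At such shares a count of 0 among 5 genes gives no contrast with the members. Anxa4, an annexin of epithelia, and Anxa7 had the order of the other high annexins on a smaller scale. Anxa4 read 10.41 with NTS/PGE2, 11.03 with NTS and 10.59 in control, and Anxa7 read 8.76, 9.35 and 8.82. Anxa9 and Anxa13 stood lower on the NTS array than in control, by differences of -0.61 and -0.60, though Anxa13 was too dim for the filter. The median of the 8 genes was -0.04 for NTS minus control, and 0.02 for NTS/PGE2 minus NTS. Anxa6 had 2 probe sets that did not agree, with -0.28 and 0.35 for NTS/PGE2 against NTS.

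Genes that work with these proteins were listed by role. Of 7 receptors and adaptors for S100A8 and S100A9, 1 was at least 2-fold higher and 1 at least 2-fold lower for NTS against control, beside 2.7% and 5.42% of all genes. Cd14, the co-receptor of TLR4, read 7.52 with NTS/PGE2, 9.97 with NTS and 7.82 in control, a difference of 2.15, while Ly96, which encodes the TLR4 partner MD-2, read 9.28, 8.60 and 9.88, a difference of -1.28. Tlr4 itself differed by -0.42 and the RAGE gene Ager by 0.50.

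Of 10 partners of annexin A2 and S100A10, 1 was at least 2-fold higher and 0 at least 2-fold lower for NTS against control, again beside 2.7% and 5.42% of all genes. This was Plat, the tissue plasminogen activator whose activity the complex promotes, at 9.63 with NTS/PGE2, 11.08 with NTS and 9.90 in control. Its differences were 1.18 for NTS minus control and -1.46 for NTS/PGE2 minus NTS. Dysf, or dysferlin, a membrane repair protein, differed by 0.77 and -0.77 in the same comparisons, and Ahnak, a scaffold held by the complex, by 0.28 and -0.28. The calcium channel gene Trpv5, whose product S100A10 and annexin A2 carry to the membrane, differed by -0.08 for NTS against control. For annexin A1, the formyl peptide receptor genes were not analysed here; the phospholipase gene Pla2g4a differed by -0.90 and the glucocorticoid-induced gene Tsc22d3 by 0.56.

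The 5 measured partners of other S100 proteins all passed the filter, and none was 2-fold different in any comparison. Between NTS and control 2.7% of all genes stood 2-fold up and 5.42% down. Between NTS/PGE2 and NTS 4.15% stood up and 3.28% down. Between NTS/PGE2 and control the shares were 0.0607% and 0.659%. A count of 0 among 5 does not set these partners apart from other genes. Cacybp, which encodes the calcyclin-binding protein, read 10.76 with NTS/PGE2, 10.00 with NTS and 10.52 in control, lowest where S100a6 was highest. Of 8 genes for binding phosphatidylserine, the ligand of annexin A5, or for engulfment, 1 was at least 2-fold higher for NTS against control, where 2.7% of all genes were. It was Havcr1 (Kim-1), at 7.50 with NTS/PGE2, 12.63 with NTS and 6.77 in control. Havcr1 is also in the list of injured tubule markers, and it passed the filter of that comparison only through its NTS value. The bridging protein genes Mfge8 and Gas6 differed by 0.52 and -0.26.

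Injured tubule markers stood high on the same array as the 4 called genes. All 11 measured were higher with NTS than in control, 9 by at least 2-fold (median 1.99), where 2.7% of all genes were. Havcr1, Krt20, Timp1 and Cd44 read below the median in control and passed the filter only through the NTS array. All 11 were lower with NTS/PGE2 than with NTS (median -2.05). Their summed linear value was 7367 with NTS/PGE2, 42870 with NTS and 10490 in control. This list was written with results of these arrays known, and its part in the values of S100a6, Anxa1, Anxa2 and Anxa3 was not tested.

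**Figure D4:**
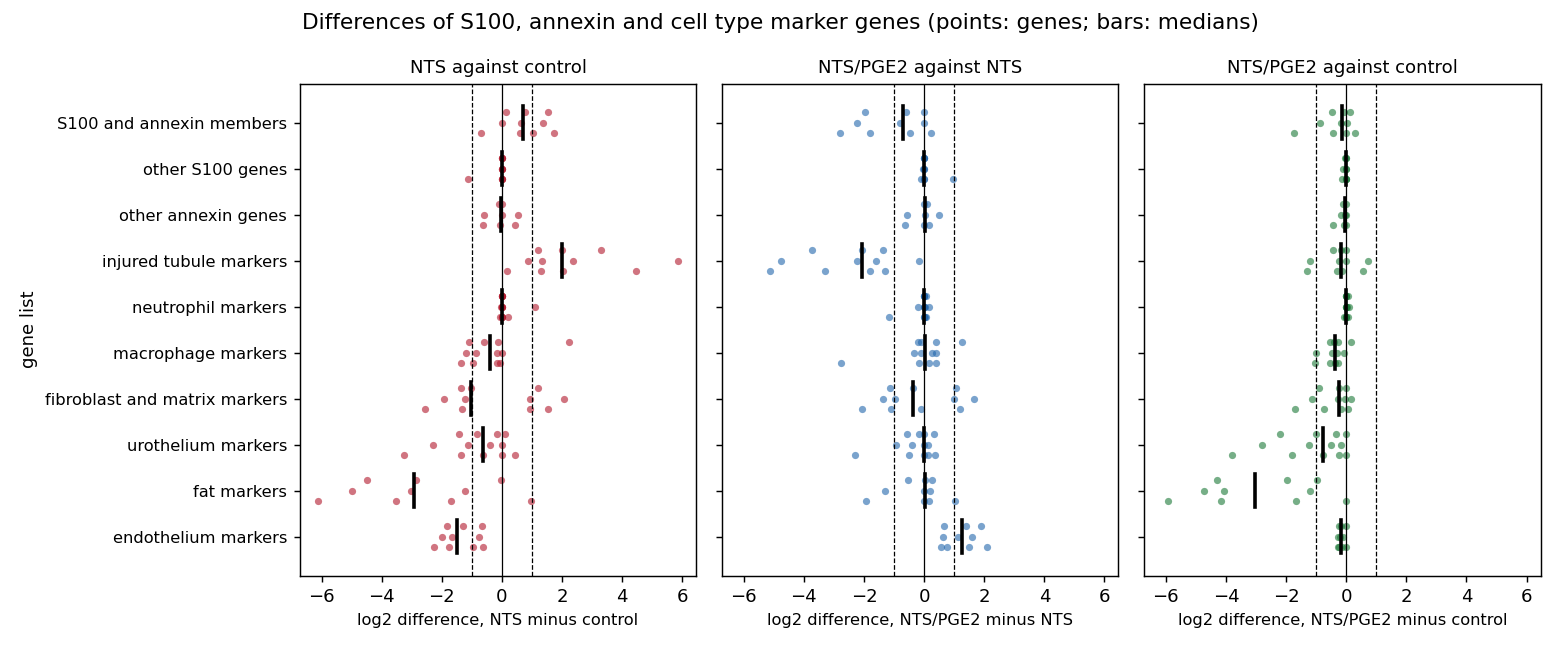
Log2 differences (horizontal axes) of the genes of each list (vertical axis) in the 3 comparisons; points are genes, black bars list medians and dashed lines 2-fold. The median of the S100 and annexin members lies on the same side as that of the injured tubule markers in the first panel (0.71 and 1.99) and the second (-0.70 and -2.05). Among the members, Anxa5 lies on the other side in both, at -0.70 and 0.24, and S100a8 and S100a9 lie at 0 in the second.

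For each gene called between NTS and control, the 3 genes of closest pattern were sought among 11333 of the 11778 genes bright enough for that comparison, leaving out predicted transcripts, RIKEN clones, small RNA genes and the gene itself, by the Euclidean distance over the differences NTS minus control and NTS/PGE2 minus control, which rest on 3 arrays. For Anxa3 they were Cenpu, Klf6 and Ddit4, at distances of 0.014, 0.082 and 0.11. Cenpu read 5.61 with NTS/PGE2, 7.41 with NTS and 5.68 in control, so it passed the filter only through its NTS value, and its other values, below the 25th percentile of their arrays, may be background. For Anxa2 they were Hmgb2, Serpinb1a and Gpc3, at 0.065, 0.092 and 0.14, and for Anxa1 they were Rasd1, Akr1b8 and Tgfbi, at 0.18, 0.18 and 0.20. S100a6 had no neighbour as close: Krt18, a keratin of simple epithelia, D17H6S56E-5 and Plin4 lay at 0.58, 0.63 and 0.79. Krt18 read 8.68 with NTS/PGE2, 10.74 with NTS and 9.88 in control, also lowest with PGE2. Among the 10 genes themselves, the closest pair apart from S100a8 and S100a9 was S100a4 and S100a11 at 0.22, and Anxa2 and Anxa3 lay 0.39 apart.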

How the data were processed

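The authors deposited log2 values of 3 Affymetrix Mouse Gene 1.0 ST arrays, labelled from 250 ng of total RNA each per the labels' protocols. They were made with Affymetrix Expression Console and RMA, per the submitters' processing notes; no source used here gives versions or a build. Median polish, the last step of RMA, can return equal values and understate small differences.

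Groups came from sample titles. Of 35556 probe sets, 21789 with a single symbol were averaged to 19938 genes, in Python 3.11.15 with numpy 2.4.6 and pandas 2.3.3; 1621 with several symbols were left out. Gene identifiers matched 21698 of them to GRCm38.p6, altering 0 symbols. Differences were subtracted log2 values. The summed linear value of a list adds its genes' unlogged values. The size rule was tested on simulated data, in which bright genes were changed by more than the call size with little noise. That outcome was largely fixed in advance, and it covers neither dim genes nor the spread between animals. No scanner values were used, so background per probe is unknown, and 1 array per group limits precision. The members, the 16 gene lists and the motifs were chosen with earlier results of these data known. Named genes were all members, called family members with S100g and S100b, set markers, up to 4 genes of largest NTS against control difference per list, the extremes of lists discussed and the 3 closest genes per called member; Ahnak, Trpv5, Krt13, Foxa1, the uncalled S100 and annexin genes and the unlisted S100a2 were added after values were seen. Alternatives were the brightest probe set, 2 scalings, 2 filters and 2 call sizes.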

Additional observations from a re-analysis of the deposited data

How the results depend on the processing

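The 30 member differences stayed within the spread between probe sets when the brightest probe set was used, when arrays were centred on their medians and when quantile normalization was repeated. The largest shift was 0.050 on the log2 scale, and the 3 medians shifted by at most 0.040. Among the members only S100a11 had more than 1 probe set, so the first setting could change no other member. RMA had already made the arrays alike, and both scalings moved the array medians by only -0.018 (NTS/PGE2), 0.007 (NTS) and 0.011 (control). Small shifts were thus largely fixed in advance. Counts of 2-fold members were 4 (NTS and control), 4 (NTS/PGE2 and NTS) and 1 (NTS/PGE2 and control) under these settings, without a filter and with a filter at the 75th percentile. The size of the call moved them by its own construction: at 1.5-fold there were 8 between NTS and control and 2 between NTS/PGE2 and control, and at 3-fold 1 between NTS and control. No paired analysis was possible because each group had 1 array, and for the same reason no replicate could be left out. Signal over background is not known for any probe set here.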
